A study of Homo sapiens with 24 samples.

Results

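The promoters described here belong to 48 human genes of the DNA damage checkpoint and of break repair, chosen by gene name. The choice was made with earlier results of these data known. For each gene, the deposited H3K4me3 regions that overlap a window of 2 kb on either side of its protein-coding start sites (GENCODE 44) were collected, and the one with most signal stands for its promoter. All 48 genes had such a region, against 14586 of 19702 protein-coding genes (74%), and the 48 regions were distinct. The assay was MINT-ChIP, which tags the chromatin of each sample with a barcode so that many samples go through 1 immunoprecipitation together. EndoC-βH3 cells, an established line of human pancreatic beta cells labelled WT, were profiled in 4 control non-senescent samples and 4 samples after senescence induction, each of 500000 cells. The line carries hTERT, SV40 large T antigen and CreER, and treatment with 4-hydroxytamoxifen for 3 weeks (1 mM in the labels, 1 μM in the study's methods) excises hTERT and large T antigen. Large T antigen, which the non-senescent cells keep, is known to bind p53 and Rb. All samples come from 1 line, and nothing in the labels says which samples were separate cultures.

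The values are the authors' mean normalized count of each region, a single number that averages the samples of both states. The term mean signal stands for this number. No value per sample was analysed here and the authors' own fold changes and p-values were not used, so the text gives no spread, no test and no difference between senescent and non-senescent cells. Depth per sample is unknown, and small differences between genes cannot be told from error. Width is the end minus the start of a region, and levels of different genes are set side by side per kb of width.

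H3K4me3 is a histone mark found at the starts of active and poised genes, usually on the nucleosomes that flank the start. A double-strand break is sensed by the MRN complex, which activates the kinase ATM, while single-stranded DNA at stalled forks activates ATR through ATRIP and TOPBP1. Both kinases act on checkpoint kinases and on chromatin around the break. The break is then joined end to end or repaired by homologous recombination, which copies the sister chromatid and is largely limited to S and G2 phase. Many recombination and Fanconi anemia genes are transcribed most in dividing cells, under E2F factors that Rb holds in check.

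The promoter sequences below show the bases just before the start in the 8 roles with the highest signal per kb. Within a role, the gene with the highest signal per kb was taken among those with a sequence in the promoter table used, so MRE11 stands in place of NBN and FANCG in place of FANCI. Each is the stretch of 150 bases before the RefSeq start site (promoter table of GRCh38.p14), read 5′ to 3′ in the direction of the gene. All 8 stretches lie inside the gene's H3K4me3 region. Capitals mark exact matches to any of 7 motifs described further down.
CHEK1, hg38 chr11:125626074-125626223, plus strand: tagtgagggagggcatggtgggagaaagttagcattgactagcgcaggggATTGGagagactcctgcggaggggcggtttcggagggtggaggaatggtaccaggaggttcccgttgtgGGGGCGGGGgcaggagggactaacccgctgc
MRE11, hg38 chr11:94493845-94493994, minus strand: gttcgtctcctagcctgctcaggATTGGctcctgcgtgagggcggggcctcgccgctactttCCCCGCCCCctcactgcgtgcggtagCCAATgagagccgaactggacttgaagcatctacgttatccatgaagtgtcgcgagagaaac
RNF168, hg38 chr3:196503769-196503918, minus strand: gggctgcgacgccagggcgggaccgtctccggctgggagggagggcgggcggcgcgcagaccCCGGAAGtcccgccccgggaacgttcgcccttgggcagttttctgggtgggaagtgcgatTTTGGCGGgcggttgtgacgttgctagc
BARD1, hg38 chr2:214809684-214809833, minus strand: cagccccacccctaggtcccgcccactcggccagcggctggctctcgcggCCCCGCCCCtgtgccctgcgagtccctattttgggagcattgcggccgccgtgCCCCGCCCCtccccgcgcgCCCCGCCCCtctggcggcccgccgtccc
XRCC2, hg38 chr7:152676142-152676291, minus strand: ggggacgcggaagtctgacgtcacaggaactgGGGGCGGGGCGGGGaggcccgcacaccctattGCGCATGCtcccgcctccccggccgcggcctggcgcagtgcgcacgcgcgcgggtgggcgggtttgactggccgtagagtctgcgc
FANCG, hg38 chr9:35079943-35080092, minus strand: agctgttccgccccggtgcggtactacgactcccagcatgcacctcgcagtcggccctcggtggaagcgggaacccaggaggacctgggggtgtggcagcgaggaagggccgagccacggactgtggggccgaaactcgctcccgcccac
BLM, hg38 chr15:90717196-90717345, plus strand: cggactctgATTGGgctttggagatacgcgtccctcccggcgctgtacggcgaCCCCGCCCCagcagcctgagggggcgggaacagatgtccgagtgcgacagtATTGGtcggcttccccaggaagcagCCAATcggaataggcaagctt
XRCC4, hg38 chr5:83077397-83077546, plus strand: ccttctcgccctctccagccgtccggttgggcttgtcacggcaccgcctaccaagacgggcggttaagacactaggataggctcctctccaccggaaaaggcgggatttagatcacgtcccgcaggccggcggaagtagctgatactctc
The BARD1 stretch holds 3 SP1 matches and XRCC2 holds a pair of overlapping ones beside an NRF1 match. MRE11 and BLM hold CCAAT letters on both strands, and FANCG and XRCC4 hold none of the 7 motifs in these bases. The RefSeq start of CHEK1 (125626224) lies inside the gene, downstream of the canonical GENCODE start (125625163), and both are inside the region.

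Signal at these promoters lay mostly in the upper part of the range. The median of the mean signal was 89.8 over the 48 genes, with quartiles of 54.1 and 109, against 49.3 over all 14586 promoters, with quartiles of 21.6 and 88.6. At or above the median of all promoters were 38 of the 48 genes (79.2%), and 25 (52.1%) were in the top 25%. Per kb the median was 23.8, against 19 over all promoters, and 37 genes (77.1%) were at or above that value. The regions were also wider, with a median of 3323 bp against 2498 bp, and 19 of 48 (39.6%) were among the widest 25%. A list of 48 other genes of the same pathways, such as CLSPN, RPA1 and POLQ, also had a region for every gene. These genes had a median signal of 61.6 and a median of 20.1 per kb. By signal, 33 of these (68.8%) were at or above the median of all promoters, but only 10 (20.8%) were in the top 25%. Per kb, 28 (58.3%) were at or above the median. In that list UBE2T, the ubiquitin-conjugating enzyme of the Fanconi pathway, was highest with a mean signal of 249, and PAXX, an end joining factor, was lowest with 3.37. These are descriptions of 2 lists of genes, chosen with earlier results of these data known, without a test.

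Width went with signal, so the genes were also set beside 4311 other promoters whose mean signal lay between the members' quartiles. This set, termed of similar signal below, spans 54.1 to 109, while the 48 genes ran from 10.7 to 250. It was weaker than the 48 genes, with a median signal of 76.3 against 89.8. In the top 25% of promoters by signal were 28.1% of the set, against 52.1% of the 48 genes. The 4311 promoters had a median width of 3170 bp and a median of 23.9 per kb, close to the values of the 48 genes. The comparison of levels per kb therefore differs by which promoters the genes are set beside. The weakest member by the rule, XRCC3, had a mean signal of 10.7, above 71.7% of all 97545 regions but above only 14.2% of promoters. The highest signal per kb was 5.66 times the lowest.

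**Figure D1:**
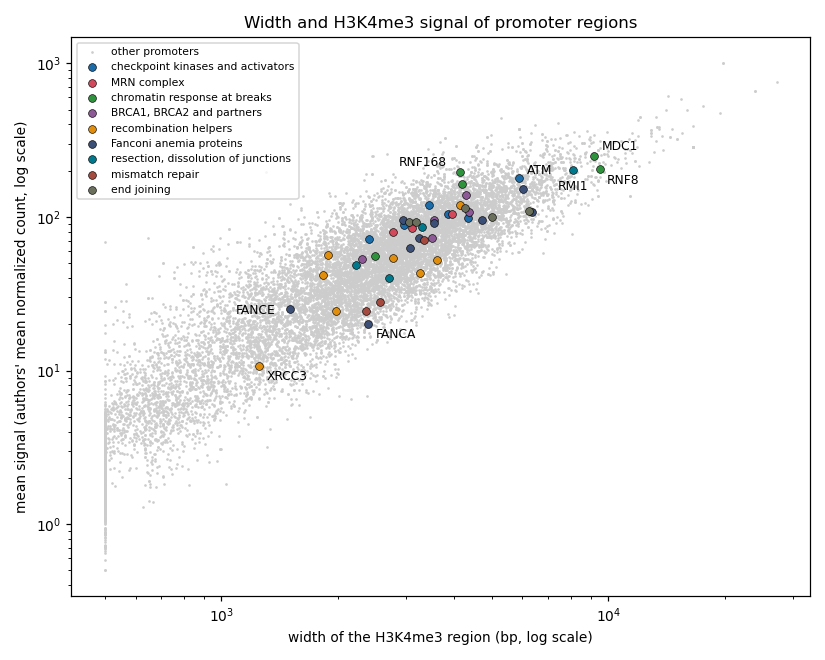
Width of each promoter's H3K4me3 region in bp (x, log scale) against its mean signal, the authors' mean normalized count (y, log scale), with the 48 genes as coloured points by role and all other promoters in grey. The 48 genes lie along the same band as the grey points, from XRCC3 (10.7) to MDC1 (250), and no member is narrower than XRCC3 (1254 bp), while many grey points at the lower left are.

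The checkpoint kinases and their activators had high signal throughout. All 6 genes of this role were above the median of all promoters, and 5 were in the top 25%. ATM, the apical kinase of the break response, had the highest mean signal of the role, 178 over a region of 5877 bp (chromosome 11, 108219696 to 108225573), higher than 95.8% of promoters. That region is shared with NPAT, as described further down. CHEK1, the effector kinase downstream of ATR, had the highest signal per kb, 34.9, with a mean signal of 120. CHEK2, its counterpart downstream of ATM, had the lowest mean signal of the role, 72.3, in the narrowest region of the role (2406 bp), yet its 30 per kb equalled that of ATRIP (30) and nearly that of ATM (30.2). ATRIP, the partner of ATR, had a mean signal of 88.7. ATR had 104 and 26.9 per kb, and TOPBP1, the activator of ATR, had 97.7 and the lowest signal per kb of the role, 22.6.

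The 3 subunits of the MRN complex were close to each other. MRE11, the nuclease, had a mean signal of 85.1 and 27.4 per kb. RAD50, the ATPase that tethers the ends, had 104 and 26.3 per kb. NBN, the subunit that recruits ATM, had 79.9 and 28.7 per kb. Their levels per kb span a range smaller than that of any other role, and with no replicate values their order was not tested.

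The proteins that mark and read chromatin at breaks held the extremes at the upper end. RNF168, the ubiquitin ligase that modifies H2A, had the highest signal per kb of all 48 genes, 47.2, higher than 97.5% of promoters, with a mean signal of 196 (chromosome 3, 196500028 to 196504174). MDC1, the adaptor that binds phosphorylated H2AX, had the highest mean signal, 250 (27.2 per kb), in a region of 9180 bp on chromosome 6 that also covers the start of the tubulin gene TUBB. RNF8, the ligase that acts before RNF168, had the widest region of the list, 9496 bp, and a mean signal of 206, but only 21.7 per kb. TP53BP1, which favours end joining, had 165 and 39.4 per kb, in a region described further below. H2AX, the histone variant that is phosphorylated at breaks, had the lowest mean signal of the role, 55.3, and 22.2 per kb.

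BRCA1, BRCA2 and their partners were all above the median of all promoters by mean signal and per kb. BARD1, the partner of BRCA1 in its ubiquitin ligase, had the highest values, 138 and 32 per kb. PALB2, which links BRCA1 to BRCA2, had 95.9 and 27 per kb. BRIP1, a helicase that binds BRCA1, had 73 and 20.8 per kb. BRCA2, a central protein of homologous recombination, had the lowest mean signal, 53.3 (23 per kb), in a region of 2315 bp (chromosome 13, 32314477 to 32316792). BRCA1 had 108 and 24.7 per kb by the rule, but from a region far from its canonical start.

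The 8 recombination helpers ran from 10.7 to 120, and only 4 reached the median of all promoters. RAD51AP1, which promotes the pairing of strands, had the highest mean signal, 120 (29 per kb), and XRCC2 had the highest signal per kb, 30.1, with a mean signal of 56.7. RAD51B had 41.6 and 22.7 per kb, RAD54B had 54.4 and 19.6 per kb, RAD51C had 52.3 and 14.5 per kb, and RAD54L, the motor protein that remodels the paired strands, had 42.9 and 13.2 per kb. RAD51D had 24.5 and 12.4 per kb. XRCC3, the partner of RAD51C, was lowest with 10.7 and 8.56 per kb, with a mean signal higher than only 14.2% of promoters.

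Among the 9 Fanconi anemia genes, which repair interstrand crosslinks, 7 were at or above the median of all promoters. FANCM, the translocase that recognises blocked forks, had the highest mean signal, 153 over 6036 bp (25.3 per kb). FANCI, which pairs with FANCD2, had the highest signal per kb, 32.5, with a mean signal of 95.9, whereas FANCD2 itself had 63.2 and 20.6 per kb. FANCL, the ubiquitin ligase of the pathway, had 108 in a wide region of 6366 bp (17 per kb). FANCG had 90.9 (25.6 per kb), FANCF had 95.7 (20.3 per kb) and FANCC had 72.8 (22.5 per kb). FANCE, with 25.1 and 16.6 per kb, and FANCA, with 20 and 8.33 per kb, were the weakest in mean signal. FANCA was the lowest of all 48 genes per kb by the rule, but the region nearest to one of its starts had a mean signal of 9.21 and 14 per kb, which is above the levels per kb of XRCC3, PMS2 and MSH6.

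Among the 4 genes of resection and of the dissolution of joined strands, 2 were at or above the median of all promoters. RMI1 had a mean signal of 201 (24.8 per kb) in a region of 8113 bp that also covers the start of HNRNPK. BLM, the helicase that works with RMI1 and RMI2, had 86.5 and the highest signal per kb of the role, 26.2. EXO1, the nuclease that resects ends, had 48.8 and 21.9 per kb. RMI2 was the lowest with 40 and 14.7 per kb.

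The 3 mismatch repair genes had a median of 10.9 per kb, the lowest of the 9 roles. MSH3 had 70.5 and 21.1 per kb. MSH6, whose product reads single mismatches, had 28 and 10.9 per kb. PMS2, a nuclease subunit, had 24.4 and 10.3 per kb. Both were below the median of all promoters.

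By the rule, the 5 end joining genes lay between a mean signal of 92.3 and 114. The lowest was LIG4, the ligase (29 per kb), and the highest was XRCC6, the Ku70 subunit (26.8 per kb). All 5 were in the top 25% of promoters by mean signal, and 4 were at or above the median of all promoters per kb. For LIG4 the value rests on a region downstream of the canonical start. The region nearest to one of its starts had 21.4 and 12.4 per kb, below the median of all promoters chosen in that way (45.8). XRCC5, the Ku80 subunit, had 110 in the widest region of the role, 6228 bp, and the lowest signal per kb, 17.6. PRKDC, the DNA-dependent protein kinase, had 99.7 and 19.9 per kb. XRCC4, the partner of LIG4, had 92.4 and 30.2 per kb, the highest of the role.

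**Figure D2:**
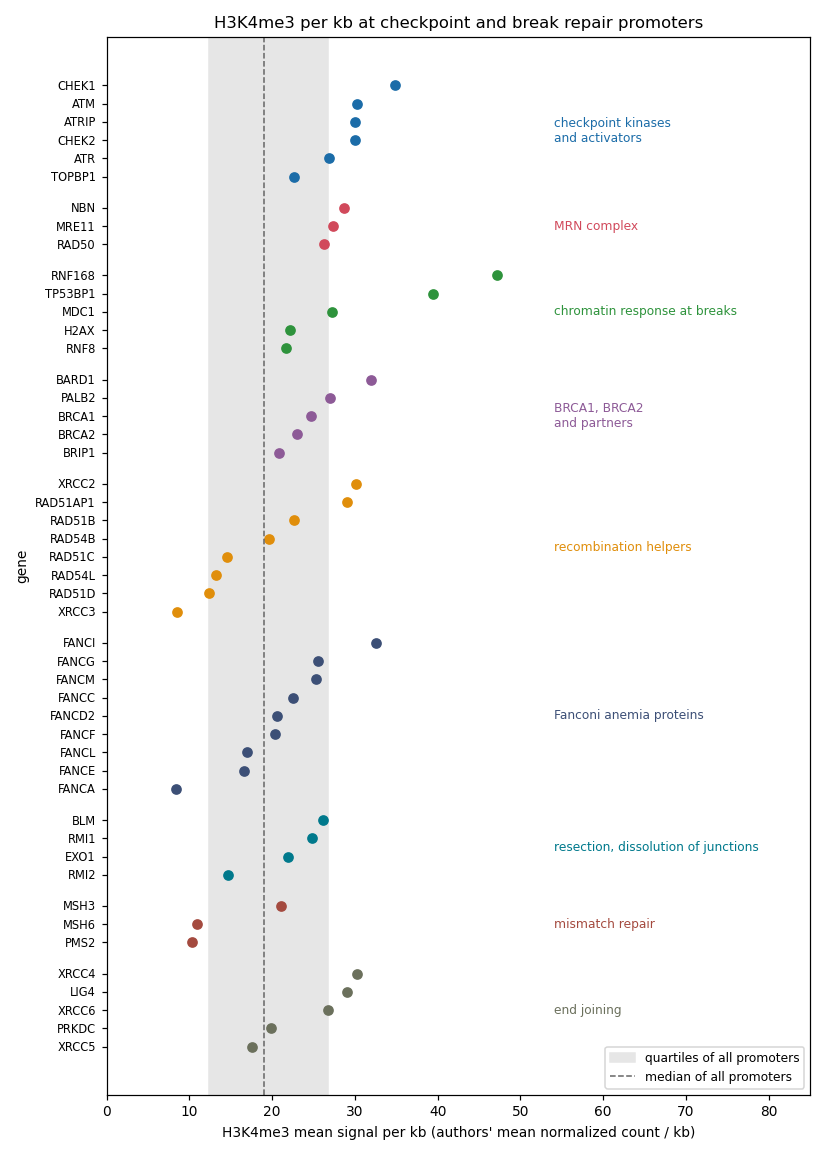
H3K4me3 mean signal per kb of region width (x, authors' mean normalized count per kb) for each of the 48 genes (y), grouped and coloured by role, each point being the authors' mean over the samples with no error bar available. RNF168 (47.2) and TP53BP1 (39.4) lie farthest to the right, while XRCC3 (8.56), FANCA (8.33), MSH6 (10.9) and PMS2 (10.3) lie below the lower quartile of all promoters (12.4, left edge of the grey band).

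Several genes had more than 1 region in their windows, and for 4 the second region had at least 50% of the signal of the first. BRCA1 is the clearest case. The region taken by the rule (chromosome 17, 43168460 to 43172838, mean signal 108) lies at a distant upstream start of the gene that faces NBR1. The region at the canonical start (43124131 to 43126534) had a mean signal of 67.1 and 27.9 per kb, so the canonical promoter was lower in mean signal but higher per kb. TP53BP1 was similar, since the region taken (chromosome 15, 43508585 to 43512771, 165) lies at a start that faces MAP1A, and the region at the canonical start had 95.4 and 33 per kb. LIG4 had 4 regions, the strongest (92.3) inside the gene, 602 bp downstream of the canonical start, and another of 74.3 that is also in the window of ABHD13. The LIG4 region closest to the canonical start (chromosome 13, 108215572 to 108216346) had a mean signal of only 10.4 and 13.4 per kb. FANCE had 25.1 in the region that begins 3 bp before its canonical start and 15.2 in a region further into the gene. The other 6 genes with more than 1 region had a second region at 46% of the first or less, and the other 38 genes (79.2%) had a single region, against 62.9% of all promoters.

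Some of the regions were shared with other genes. For 21 of the 48 genes (43.8%) the region also lay in the window of another protein-coding gene, against 24.9% of all promoters and 30% of the 4311 promoters of similar signal. With only canonical starts the count was 17. For 19 of the 48 genes (39.6%) a gene sharing the region was transcribed away from the member from a start within 1000 bp. This divergent arrangement was found at 15.8% of all promoters and at 20.9% of those of similar signal. The other pathway genes had the same share, 19 of 48 (39.6%). Reads in such a region cannot be assigned to either gene. This limit holds for several genes with the highest mean signal of their role, among them ATM, RAD50, MDC1, RAD51AP1, FANCM, RMI1 and XRCC6. BARD1, the highest of its role, had an unshared region. PRKDC and MCM4, a subunit of the replicative helicase, had starts 7 bp apart. ATM and NPAT, a regulator of histone genes, had starts 429 bp apart. MRE11 and ANKRD49 were 94 bp apart, RAD50 and an annotated start of IL5 were 92 bp apart, XRCC4 and TMEM167A were 104 bp apart, and XRCC6 and DESI1 were 120 bp apart. Further pairs were CHEK2 with HSCB (201 bp), TP53BP1 with MAP1A (344 bp), BRCA1 with NBR1 (236 bp), BRCA2 with ZAR1L (142 bp), PALB2 with DCTN5 (145 bp), RAD51AP1 with C12orf4 (382 bp), RAD51C with TEX14 (518 bp) and IGBP1C (528 bp), RAD51D with FNDC8 (134 bp), XRCC3 with ZFYVE21 (226 bp), FANCM with FKBP3 (611 bp), RMI1 with HNRNPK (167 bp) and PMS2 with AIMP2 (133 bp). MDC1 and FANCF shared their regions with TUBB and GAS2 on the opposite strand, with nearest annotated starts 12 and 181 bp apart. By those starts the arrangement was overlapping or convergent, and it was not scored from canonical starts. All distances here are between the nearest annotated starts of a pair. RAD51D also shared its region with an unnamed gene on the same strand. The starts of FNDC8 and ZFYVE21 lie outside the shared region, though within 2 kb of it.

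The position of the start within the region differed between shared and unshared promoters. The canonical start lay inside the region for 43 of 48 genes (89.6%), against 66.2% of all promoters and 81.4% of those of similar signal. It lay outside for BRCA1, TP53BP1, LIG4, FANCA and XRCC3. For the 25 unshared regions with the start inside, a median of 29.5% of the region lay upstream of the start, and FANCD2 was the only one of these 25 with more of its region upstream than downstream. For the 18 shared regions the median was 56.7%, and 12 of the 18 had more upstream. Over all promoters the same medians were 36.2% for unshared and 49.6% for shared regions. More of the region lay upstream in 1434 of 7020 unshared and 1292 of 2637 shared regions of all promoters. RNF8 had 540 bp upstream and 8956 bp downstream, CHEK1 had 223 and 3224 bp, and FANCL had 761 and 5605 bp. The values depend on the start used, and for CHEK1 the RefSeq start (125626224) lies further into the gene, with more of the region upstream. MDC1 had 7634 bp upstream of its canonical start, toward TUBB.

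**Figure D3:**
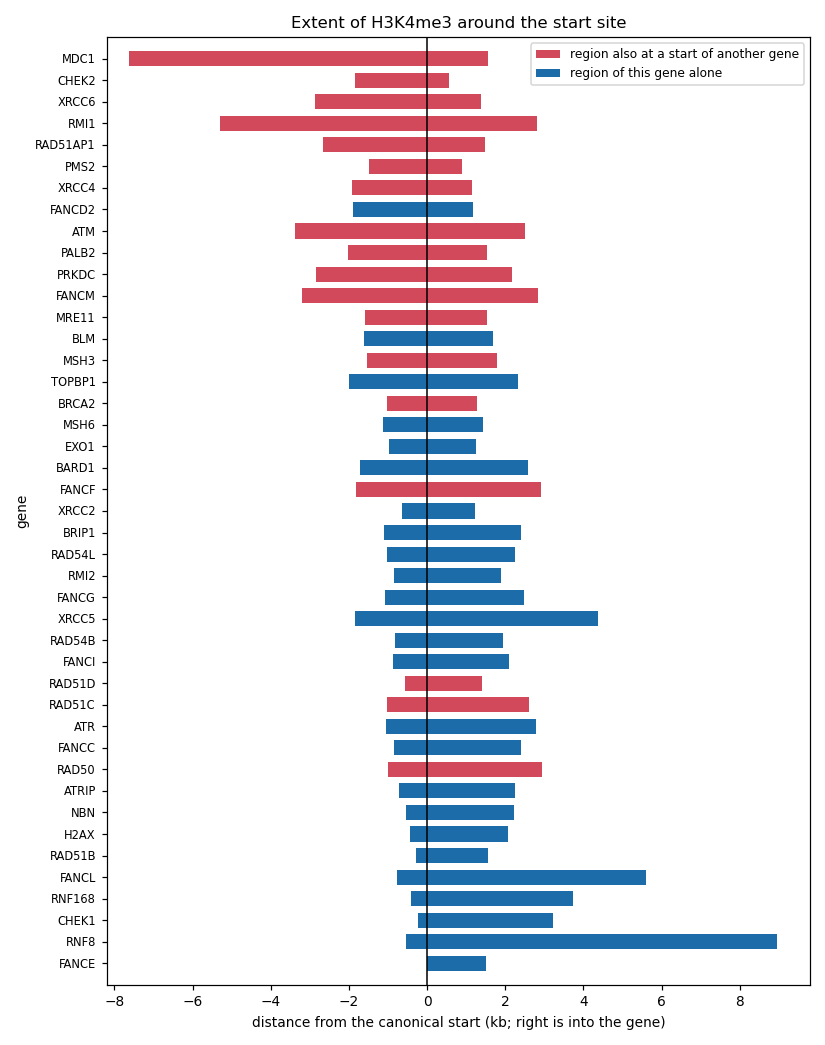
Extent of the H3K4me3 region around the canonical start (x, distance in kb, positive into the gene) for the 43 genes whose start lies inside the region (y), ordered by the share of the region upstream. Regions that also lie at a start of another gene (red) sit mostly at the top, where more of the region is upstream, while regions of a gene alone (blue) extend mainly into the gene, the longest being RNF8 with 8956 bp.

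The letters of the promoters were searched next. RefSeq promoter sequences of 300 bases, from 250 before to 50 after the start, were found for 42 of the 48 genes and for 11656 other genes with an H3K4me3 promoter region. NBN, RAD54B, PRKDC, FANCI, RMI2 and XRCC5 had no entry. The RefSeq start lay inside the H3K4me3 region for 37 of the 42 genes. The motifs, counted on both strands as exact letters, were E2F (TTTCGCGC, TTTGGCGC, TTTCCCGC or TTTGGCGG), CHR (TTTGAA or TTCGAA), the CCAAT box (CCAAT), ETS (CCGGAAG), NRF1 (GCATGCGC), the TATA box (TATAAA) and SP1 (GGGGCGGGG). An SP1 match can abut or overlap another SP1 match, and E2F matches on opposite strands can overlap. The promoters' GC content had a median of 63.8%, against 65.8% for the others, and ranged from 32.3% (RAD51B, whose RefSeq start lies outside the region) to 78% (MSH6).

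E2F letters were found in 9 of the 42 promoters (21.4%), against 5.45% of the others and 6.12% of the 3547 others of similar signal. The 9 genes were TOPBP1, RNF168, XRCC2, FANCC, FANCD2, EXO1, MSH3, MSH6 and XRCC6. Stretches of 8 of them are shown because E2F factors are known partners of Rb, and they were chosen after their matches were seen. Each line gives the match in capitals with the bases on either side.
TOPBP1, hg38 chr3:133661930-133661959, minus strand: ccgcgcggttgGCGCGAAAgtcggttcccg
RNF168, hg38 chr3:196503778-196503807, minus strand: ggaagtgcgatTTTGGCGGgcggttgtgac
XRCC2, hg38 chr7:152676102-152676131, minus strand: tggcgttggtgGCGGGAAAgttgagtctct
FANCC, hg38 chr9:95317863-95317892, minus strand: ccggggcttccGCGCGAAAccgggaacact
FANCC, hg38 chr9:95317737-95317766, minus strand: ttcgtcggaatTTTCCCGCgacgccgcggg
FANCD2, hg38 chr3:10026424-10026453, plus strand: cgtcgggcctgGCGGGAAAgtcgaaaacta
EXO1, hg38 chr1:241848197-241848226, plus strand: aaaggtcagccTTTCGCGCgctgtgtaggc
MSH6, hg38 chr2:47783137-47783166, plus strand: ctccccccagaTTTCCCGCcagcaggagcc
XRCC6, hg38 chr22:41621326-41621344, plus strand: gtcgcttccctGCGCCAAA
For TOPBP1 and FANCD2 the match spans the start base itself, and the first base of the match lies at -7 and -2 from it. For EXO1, MSH6, XRCC2 and XRCC6 the match begins 4, 3, 21 and 42 bases after the start base. RNF168 has its match at -28. FANCC has a pair of matches, at -172 and -46. The mean signal of these 9 promoters ran from 28 (MSH6) to 196 (RNF168), that is, over most of the range of the list. The match is a description of letters and does not show that a factor was bound.

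The CCAAT box was found in 24 of 42 promoters (57.1%), against 36.3% of the others and 38.2% of those of similar signal. In the 100 bases before the start it was found in 20 of them (47.6%, against 22.1% of the others). ETS letters were in 13 (31%, against 18.3% of all others and 24.9% of those of similar signal), among them ATM, ATR, RAD50 and BRCA2. SP1 letters were in 14 (33.3%, against 28.3%) and CHR letters in 5 (11.9%, against 10.9%), shares near those of the others. NRF1 letters were in XRCC2 and XRCC6 (4.76%, against 5.3%), and the only TATA box was that of H2AX, with its first base at -31 (2.38%, against 6.16%). That difference rests on 1 gene and turned in whole H3K4me3 regions, where 81.2% of the 48 genes and 62.3% of the others held the letters. Only RAD51B, RAD51C, FANCG and FANCL, 4 of 42, held none of the 7 motifs, against 26.8% of the other promoters.

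**Figure D4:**
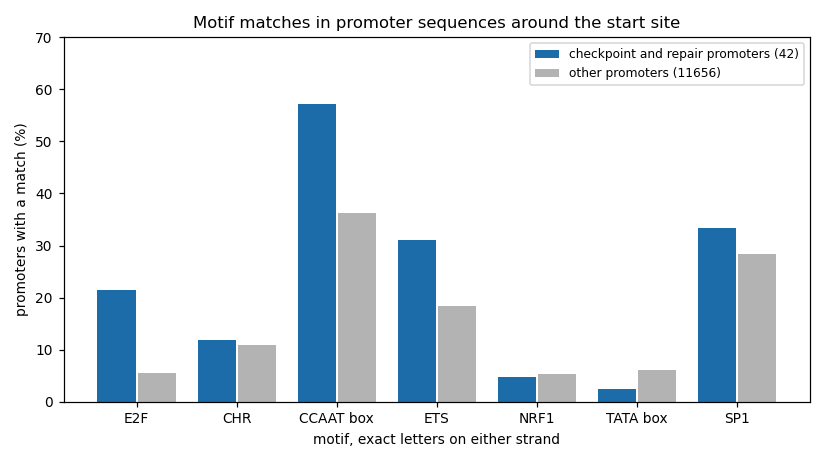
Share of promoters with an exact match to each motif on either strand (y, %) for 42 checkpoint and repair promoters (blue) and 11656 other promoters (grey), in the 300 bases around the RefSeq start. The blue bar is higher for E2F (21.4% against 5.45%), the CCAAT box (57.1% against 36.3%) and ETS (31% against 18.3%), lower for the TATA box (1 gene, a direction that turned in whole regions), and near the grey bar for CHR and NRF1.

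Most of these regions are single-copy sequence. Up to 60 stretches of 24 bases per region were counted on both strands of hg38 without alternate loci, and for all 48 regions the median stretch occurred once. The share of stretches found once was lowest at PMS2 and FANCA (66.7% each), followed by MDC1 (71.7%) and PALB2 (76.7%). How reads that match several places were treated is not given in the sources used here.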

How the data were processed

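H3K4me3 was measured by MINT-ChIP in 8 samples, and 16 samples of H3K27me3 and H3K9me3 were not analysed here. The authors used Bowtie2 and samtools for hg38 alignments, HOMER for H3K4me3 peaks and, for comparing states, the authors ran DESeq2. The deposited signal is its base mean, in which the authors averaged normalized counts of a region, with no SD or depth. How regions were merged, how reads were counted and whether duplicates were removed is not given in the sources used here. The 5 other columns hold the authors' own comparison (fold change, its standard error, score, p-value and adjusted p-value) and were not used.

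The 48 genes and the lists were chosen with earlier results of these data known. Start sites came from protein-coding transcripts of GENCODE 44, and GC content and sequences from hg38, whose chromosome lengths contain all 97545 regions. The 300-base RefSeq entry nearest the canonical start was taken, and all entries used matched hg38. Genes are grouped into 9 roles. By rule, mean signal and signal per kb are given for the highest and lowest gene of each role, for genes with a second region at 50% of the first or more, and for genes sharing a region. The E2F stretches were chosen for their matches. The neighbour of 1 member and the stretch it shares are not reported here. Linking of regions was tested on simulated data. A median or share over genes is a description without a test. Windows of 1 kb and 500 bp, other start sites, other regions and a signal limit of 10 were tried. Python 3.11.15, numpy 2.4.6, numba 0.67.0, pysam 0.24.0, matplotlib 3.10.9 and samtools 1.23.1 were used.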

Additional observations from a re-analysis of the deposited data

How the results depend on the processing

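No paired analysis was possible because the values used are means over all samples, with no value per replicate, and for the same reason no replicate could be left out. Of 61 values under alternatives, 43 were taken as the same and 18 as moved. A count was taken as moved when it differed by more than 1.5 times, and a median when its rounded value changed. The 18 are the medians and the motif counts given here. The median signal of the 48 genes (89.8) was 87.6 with only the canonical start or with the region nearest a start, and 90.9 with a 500 bp window, where XRCC3 had no region. The median per kb (23.8) was 23.9, 22.8 and 24.7 under the same settings. Counts that stayed within the limit still varied. Genes in the top 25% of promoters (25) were 18 when all regions in a window were summed and 21 with regions of mean signal under 10 left out. Genes at or above the median of all promoters (38) were 34 and 33 under the same settings. Per kb, the genes at or above the median (37) were 32 with the signal limit. Shared regions (21) were 17 with only the canonical start, 20 with the 500 bp window, 22 with the nearest region and 23 with start sites of all transcripts. That last alternative was chosen after the data were seen, and it gave the same medians of signal and of signal per kb. With only the canonical start BRCA1 was at 67.1 and TP53BP1 at 95.4. With the region nearest any start LIG4 was at 21.4 and FANCA at 9.21 (14 per kb in place of 8.33). The motif counts depend on the window. In the 100 bases before the start, E2F was found in 2 promoters, CHR in 1, ETS in 7, NRF1 in 1 and SP1 in 9, and E2F was then at 4.76% against 1.91% of the others and 2.26% of those of similar signal. The shares of the others of similar signal were near those of the members for CHR (2.34% against 2.38%), ETS (14.7% against 16.7%) and SP1 (18.7% against 21.4%), and NRF1 was at 4.45% against 2.38%. In whole H3K4me3 regions of all 48 genes, the CCAAT box was found in 48, CHR in 46, the TATA box in 39, ETS in 22, SP1 in 22, E2F in 21 and NRF1 in 7. E2F was then at 43.8% against 17.6% of the others and 20.8% of those of similar signal. The other counts were near the shares of those of similar signal, at 100% against 97.1% for the CCAAT box, 95.8% against 92% for CHR, 81.2% against 79.2% for the TATA box, 45.8% against 42.9% for ETS, 45.8% against 42.1% for SP1 and 14.6% against 14.1% for NRF1. The TATA box, lower in the members in the 300 bases, was higher there and at 2.38% against 2.14% of those of similar signal in the 100 bases. These windows differ in length, and longer windows hold more matches.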
